A study of Homo sapiens with 6 samples.

Results

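Hyaluronan is a long, unsulfated sugar chain of the extracellular matrix. Hyaluronan synthases (HAS enzymes) spin it through the plasma membrane from the nucleotide sugars UDP-glucuronic acid and UDP-N-acetylglucosamine. Hyaluronidases of the HYAL family and the CEMIP proteins cut it, and CD44 is its main cell surface receptor. In carcinomas of the colon and elsewhere the chain and CD44 have been studied in adhesion, migration and growth signalling. Here 10 genes were followed: the synthases HAS2 and HAS3, the precursor enzymes UGP2 and UGDH, the receptor CD44, the hyaluronidases HYAL1, HYAL2 and HYAL3, and CEMIP and CEMIP2. They are 10 of the 28278 gene symbols in the count tables, and 9 of them are among the 14002 genes that passed a filter on low counts and were tested. The set was picked on earlier results of the same comparison, in which HAS2 was among the largest decreases, and was then filled by function. The fold changes of these 10 genes are therefore given as a description, without p-values.

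The cells were HCT116, an established line from a human colon carcinoma that the labels call poorly differentiated. In 3 libraries the cells carried an shRNA against TRIM21 (shTRIM21, genotype TRIM21 knockdown), and in 3 a scrambled shRNA (shControl, genotype WT). Both groups were infected with lentivirus, placed in puromycin at 5 µg/ml after 36 h, held under selection for 2 to 3 weeks and labelled day 21. The labels call the libraries biological replicates. They do not say whether the stable cells were a pool or a clone, how many shRNA sequences were used, or that the replicates were separate cultures, so errors and p-values measure only the spread between these libraries, which may be technical. RNA was measured by sequencing of rRNA-depleted total RNA, as raw counts per gene.

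The libraries held 22656160 to 25842818 counts in shTRIM21 and 24646400 to 27123657 in shControl. TRIM21 had 225, 182 and 173 counts in shTRIM21 replicates 1 to 3, against 288, 286 and 443 in shControl, a log2 fold change of -0.73 (SE 0.17, edgeR adjusted p = 0.0124) that lost its call without shTRIM21 replicate 3 (-0.62) or without replicate 3 of both groups (-0.45). Of 10 epithelial markers 6 averaged at least 5 CPM (counts scaled to a common library size), as did 2 of 6 markers of colon and intestine. CDX1 and CEACAM5 were at 0 in every library, and CDH1, KRT19, KRT20 and ESRP1 averaged under 5 CPM in both groups. Summed epithelial markers ran from 522 to 561 CPM in shTRIM21 and from 544 to 547 CPM in shControl. Markers of fibroblasts, endothelium and leukocytes each summed to at most 0.449 CPM in any shTRIM21 library and 0.490 CPM in any shControl library. Some genes that nearly every cell line transcribes, such as CANX and RPL7A, are also listed at 0, so a 0 is not read as absence.

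In the shTRIM21 cells HAS2 RNA fell to 0.327 of the shControl level, CD44 RNA fell to 0.862 of it and UGDH RNA rose to 1.31 times it (fitted ratios). The other 6 tested genes, HAS3, UGP2, HYAL2, HYAL3, CEMIP and CEMIP2, did not pass the test, and HYAL1 was too low to test. Thus 3 of 9 passed an adjusted p of 0.05 over all genes, 1 higher and 2 lower. Across all tested genes the share was 9.08%, with 4.43% higher and 4.66% lower. Values of the groups did not overlap for 4 of the 9, HAS2, HAS3, CD44 and UGDH, against 28.1% of all tested genes. The median log2 fold change of the 9 was 0.10, and that of all tested genes 0.01. Because HAS2 was picked on this comparison, nothing is read from these counts. In bulk RNA, fewer cells with a transcript and less transcript per cell cannot be told apart.

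**Figure D1:**
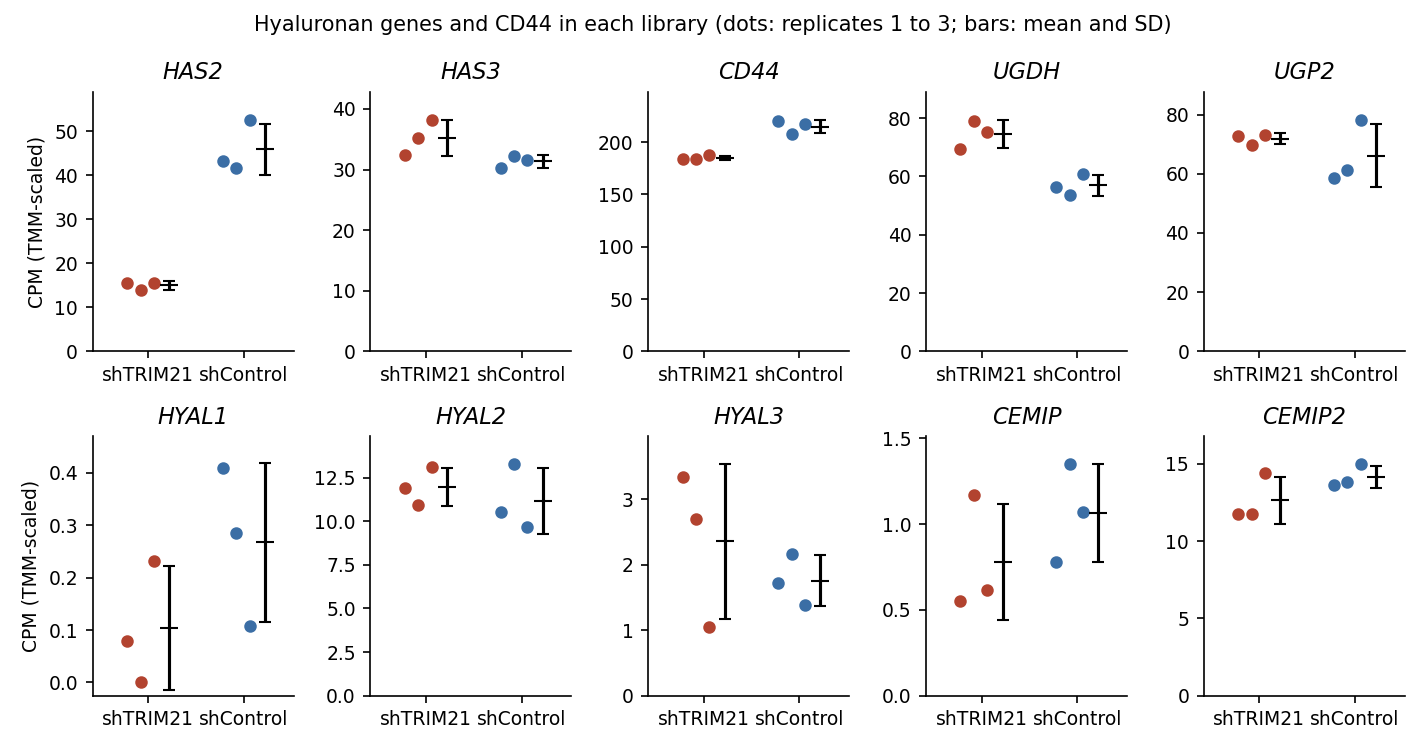
TMM-scaled CPM (vertical axes, linear and each with its own scale) of the 10 genes in 3 shTRIM21 libraries (red, left) and 3 shControl libraries (blue, right), with mean and SD as black bars. All HAS2 dots lie between 13.9 and 15.6 CPM in shTRIM21, below the shControl dots at 41.7 to 52.7 CPM, and the UGDH dots of shTRIM21 lie above those of shControl.

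HAS2 encodes the synthase that makes very long hyaluronan chains and is the isoform needed in mouse embryos. HAS2 (ENSG00000170961) maps to chromosome 8, minus strand, 121612116 to 121641390 in GRCh38. It had 398, 310 and 401 raw counts in shTRIM21 replicates 1 to 3, against 1060, 1021 and 1479 in shControl. After scaling, these were 15.6, 13.9 and 15.5 CPM in shTRIM21, against 43.4, 41.7 and 52.7 CPM in shControl. The highest shTRIM21 library lay far below the lowest shControl library, and shControl replicate 3 was the highest of all. Means were 15.0 ± 0.941 CPM in shTRIM21 and 45.9 ± 5.90 CPM in shControl (SD, n = 3 each). The log2 fold change was -1.61 (SE 0.11), rank 38 from the lowest among the 14002 tested genes. Over 15 other fits of the same libraries it ran from -1.68 to -1.49, a range that describes the value and adds no support, since HAS2 was picked on this comparison.

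HAS2-AS1, a long noncoding RNA on the opposite strand, overlaps 201 bases of HAS2 exons, and the strand setting of the counting is not given in the sources used here. It held 8, 16 and 16 counts in shTRIM21, against 19, 19 and 14 in shControl. These groups overlapped, and its log2 fold change of -0.31 (SE 0.57) did not pass (edgeR adjusted p = 0.795). Its counts were 3.72% ± 1.59 of those of HAS2 in shTRIM21 and 1.53% ± 0.509 in shControl (SD, n = 3 each), so few of the reads at the locus were assigned to it.

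HAS3, the synthase often described as making shorter chains, lies on chromosome 16 at 69105564 to 69118719 on the plus strand (GRCh38, ENSG00000103044). It had 32.3, 35.2 and 38.2 CPM in shTRIM21, against 30.2, 32.3 and 31.5 CPM in shControl. The groups just failed to overlap, with shTRIM21 replicate 1 beside shControl replicate 2. The log2 fold change of 0.17 (SE 0.10) did not pass the test and stayed between 0.11 and 0.23 in all fits. CHTF8 on the opposite strand shares 365 bases of HAS3 exons, and its log2 fold change of 0.09 (SE 0.07) did not pass either (edgeR adjusted p = 0.487). HAS1, the other synthase of the family, is listed at 0 in all 6 libraries.

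Per length of annotated exon, HAS2 made up 37.9%, 33.3% and 33.9% of the summed HAS2 and HAS3 level in shTRIM21 replicates 1 to 3, against 64.4%, 62.0% and 67.8% in shControl. In shTRIM21 libraries HAS3 was thus the more abundant synthase transcript, and in shControl libraries HAS2. The share averaged 35.0% ± 2.50 in shTRIM21 and 64.7% ± 2.92 in shControl (SD, n = 3 each), and with coding length instead it was 30.0% ± 2.31 and 59.3% ± 3.09 in the same groups. The summed level was 10.2 ± 0.587 CPM per kb in shTRIM21 and 16.9 ± 1.43 CPM per kb in shControl (SD, n = 3 each), a ratio of 0.607. HAS2 contributed 3.58 CPM per kb to the shTRIM21 sum and 11.0 CPM per kb to that of shControl. HAS3 contributed 6.67 CPM per kb in shTRIM21 and 5.93 CPM per kb in shControl. These figures carry the HAS2 difference by which the set was chosen and are given without a test.

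**Figure D2:**
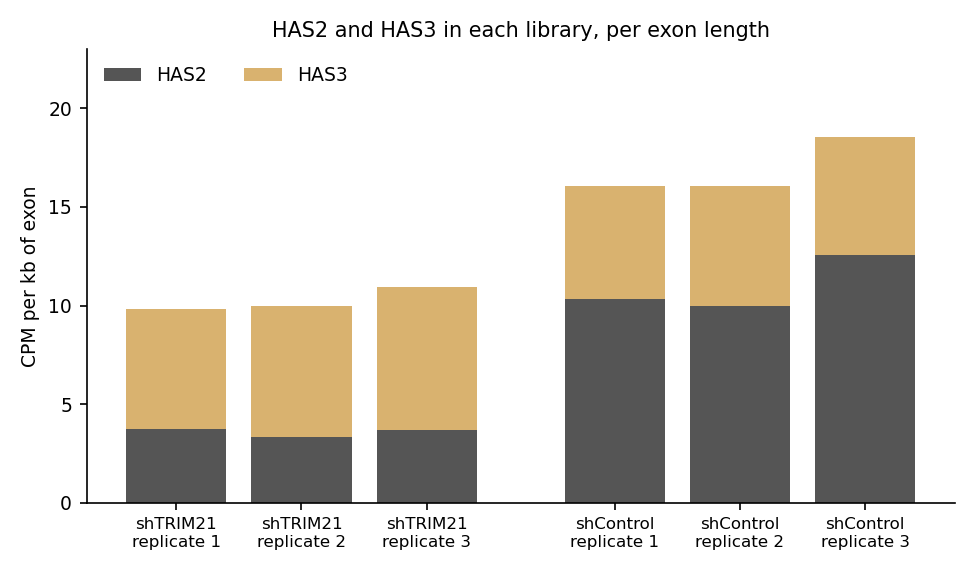
Stacked bars of HAS2 (dark, lower) and HAS3 (light, upper) in CPM per kb of annotated exon (vertical axis from 0), for each shTRIM21 library (left) and each shControl library (right). The HAS2 segment is 3.32 to 3.73 in shTRIM21 and 9.96 to 12.6 in shControl, and the HAS3 segment is 6.11 to 7.22 in shTRIM21 and 5.72 to 6.10 in shControl.

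CD44 is a single-pass receptor that binds hyaluronan through its link domain and is made in many splice forms, which gene counts do not separate. It lies on chromosome 11 at 35138870 to 35232402 on the plus strand (GRCh38, ENSG00000026508). It had 184, 184 and 187 CPM in shTRIM21, against 220, 207 and 217 CPM in shControl. The groups did not overlap, with shTRIM21 the lower, and the shTRIM21 libraries were nearly equal. Means were 185 ± 1.91 CPM in shTRIM21 and 215 ± 6.51 CPM in shControl (SD, n = 3 each). The log2 fold change was -0.21 (SE 0.06), a ratio of 0.862. The change passed the test, but the call was lost with shTRIM21 replicate 1 (-0.21), 2 (-0.21) or 3 (-0.22), or shControl replicate 1 (-0.20) or 2 (-0.24), left out. It was also lost with scaling by total counts (-0.22), and it was kept without shControl replicate 3 (-0.20) and without replicate 3 of both groups (-0.21).

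UGDH oxidises UDP-glucose to UDP-glucuronic acid, which enters hyaluronan and the sulfated glycosaminoglycans and is used in glucuronidation. UGDH (ENSG00000109814) maps to chromosome 4, minus strand, 39498755 to 39528311 in GRCh38. UGDH had 69.5, 79.1 and 75.3 CPM in shTRIM21, against 56.5, 53.6 and 60.8 CPM in shControl, so the lowest shTRIM21 library was above the highest shControl library. Means were 74.6 ± 4.81 CPM in shTRIM21 and 57.0 ± 3.60 CPM in shControl (SD, n = 3 each). The log2 fold change of 0.39 (SE 0.08), a ratio of 1.31, ran from 0.35 to 0.44 in the other fits.

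UGDH-AS1, an antisense transcript, shares 293 bases of UGDH exons and was counted more often than UGDH itself. It had 107, 122 and 119 CPM in shTRIM21, against 117, 117 and 94.5 CPM in shControl. These groups overlapped, with a log2 fold change of 0.09 (SE 0.08, edgeR adjusted p = 0.584). Without strand, reads in the shared bases cannot be assigned to either gene.

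UGP2 acts just before UGDH and makes UDP-glucose, which also feeds glycogen synthesis. It lies on chromosome 2 at 63840940 to 63891562 on the plus strand (GRCh38, ENSG00000169764). UGP2 had 72.9, 69.9 and 73.0 CPM in shTRIM21, against 58.5, 61.4 and 78.2 CPM in shControl. The groups overlapped only because shControl replicate 3 exceeded all 3 shTRIM21 libraries. The log2 fold change of 0.12 (SE 0.09) did not pass. It was 0.04 without shControl replicate 1 and 0.07 without shControl replicate 2, and passed in neither. It was 0.27 without shControl replicate 3 and 0.26 without replicate 3 of both groups, and passed in both of those fits. Replicate 3 of shControl also had the lowest rRNA share, 6.69% of counts. The share was 9.55% to 15.2% in shTRIM21 and 13.2% to 14.7% in the other shControl libraries. With rRNA genes left out of all libraries the UGP2 log2 fold change was 0.11 and did not pass. That fit removes the rRNA counts and rescales the libraries, so it cannot show whether the rRNA share bears on the UGP2 value. Such a link was not tested.

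**Figure D3:**
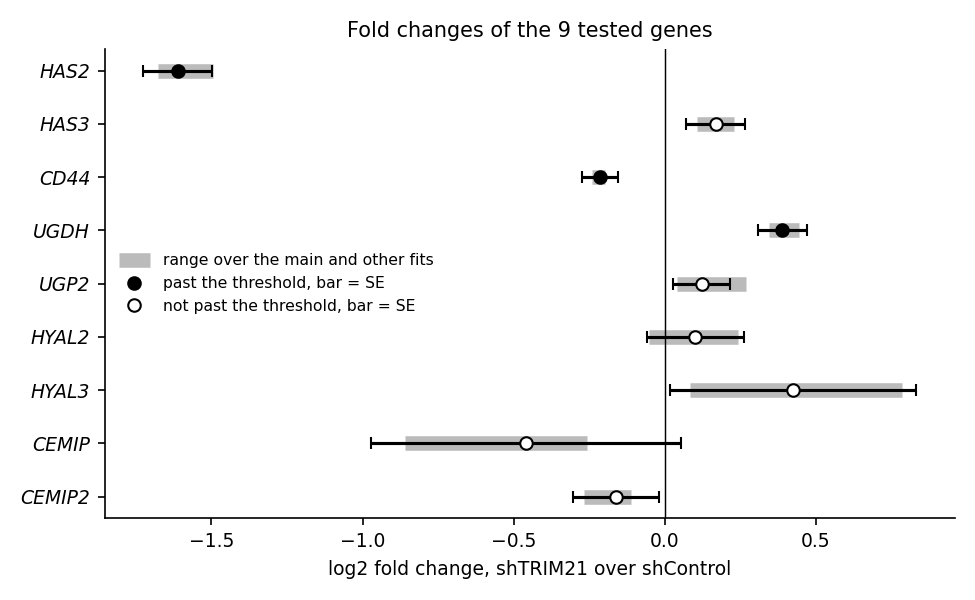
Log2 fold change, shTRIM21 over shControl (horizontal axis), of the 9 tested genes with its SE as a black bar, filled where the gene passed the test, and a grey band for the range over the main and 15 other fits. HAS2 stands apart at -1.61, CD44 (-0.21) and UGDH (0.39) are the other filled points, and only the band of HYAL2 crosses 0.

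Of the enzymes that break the chain down, none passed the test, and most were low. HYAL2, a membrane-anchored hyaluronidase that cuts long chains into fragments, had 11.9, 10.9 and 13.1 CPM in shTRIM21, against 10.6, 13.3 and 9.68 CPM in shControl. The groups overlapped, and the log2 fold change was 0.10 (SE 0.16), with 0.014 without shControl replicate 3 and 0.24 without shControl replicate 2 as the extremes with 1 library left out. HYAL1, the lysosomal hyaluronidase, held 2, 0 and 6 counts in shTRIM21, against 10, 7 and 3 in shControl, too few to be tested. HYAL3, a relative of less certain activity, held 85, 60 and 27 counts in shTRIM21, against 42, 53 and 39 in shControl. Its shTRIM21 libraries lay on both sides of all shControl libraries, and the log2 fold change of 0.42 (SE 0.41) did not pass. It was 0.08 without shTRIM21 replicate 1 and 0.78 without shTRIM21 replicate 3, and lay between these with any other library left out.

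The 3 hyaluronidase genes sit together on the minus strand of chromosome 3 between 50292831 and 50322906 (GRCh38), where transcripts overlap on the same strand. HYAL3 shares 248 exon bases with NAA80, an acetyltransferase of actin, and 43 with IFRD2, and HYAL2 shares 509 with TUSC2. NAA80 had 103, 70 and 65 counts in shTRIM21, against 64, 96 and 58 in shControl, a log2 fold change of 0.18 (SE 0.31) that did not pass (edgeR adjusted p = 0.788). TUSC2 (0.03, SE 0.12) and IFRD2 (-0.00, SE 0.11) did not pass either. How shared reads were split is not given in the sources used here, so the HYAL2 and HYAL3 counts are uncertain.

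CEMIP, a secreted protein that promotes breakdown of hyaluronan and is studied in colon cancer, held 14, 26 and 16 counts in shTRIM21, against 19, 33 and 30 in shControl. It was one of the lowest tested genes, at percentile 8.15 of mean CPM, and its log2 fold change of -0.46 (SE 0.51) did not pass. With 1 library left out it ran from -0.86 (without shTRIM21 replicate 2) to -0.26 (without shTRIM21 replicate 1 or shControl replicate 2). MESD, which shares 224 exon bases with CEMIP on the opposite strand, had a log2 fold change of -0.17 (SE 0.08, edgeR adjusted p = 0.215). CEMIP2, its membrane-bound relative, had 11.8, 11.8 and 14.4 CPM in shTRIM21, against 13.7, 13.8 and 15.0 CPM in shControl. Those groups overlapped through shTRIM21 replicate 3, with a log2 fold change of -0.16 (SE 0.14), or -0.27 without that library. HYAL4 and SPAM1, the other hyaluronidase family genes, are listed at 0 in all libraries.

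Per kb of exon the order of levels differed between the groups at 1 point. In shTRIM21 libraries it ran CD44 (18.5 CPM per kb), UGDH (18.4), UGP2 (11.1), HAS3 (6.67), HAS2 (3.58), HYAL2 (2.63), CEMIP2 (1.31), HYAL3 (1.16), CEMIP (0.102) and HYAL1 (0.0330). In shControl libraries HAS2 stood higher in the order, at 11.0 CPM per kb, behind CD44 (21.5) and UGDH (14.1) and ahead of UGP2 (10.2), with HAS3 (5.93) next and the rest in the same order. Libraries overlapped between neighbours for CD44 and UGDH, CEMIP2 and HYAL3, and CEMIP and HYAL1 in shTRIM21, and for HAS2 and UGP2, and CEMIP and HYAL1 in shControl. Exon length here joins all annotated transcripts, 10004 bases for CD44, which lowers the value of genes with many splice forms.

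Among the 10 genes HAS2 and UGDH each hold 1 of 2 sequences of 7 bases that an earlier scan of these same fold changes had picked in 3′ UTRs, one with lower and one with higher values. AGTGGAA occurs once in the annotated 3′ UTR of HAS2, at base 1027 of 1993. GTGTCAC occurs once in that of UGDH, at base 801 of 1388. The longest annotated 3′ UTRs of the other 8 genes hold neither. Of 11838 tested genes with a 3′ UTR in the annotation, 16.2% hold AGTGGAA and 9.87% hold GTGTCAC, searched on the transcript strand only. The UGDH stretch, chr4:39499326-39499352 on the minus strand (GRCh38, from GENCODE), is shown with the 7 bases in capitals. The HAS2 stretch is not reported here.

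UGDH 3′ UTR site: ttaataaaatGTGTCACtgatttttta

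Because both sequences came from the same fold changes, their presence in genes that fell or rose is a description and was not tested.

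The rest of the pathway was described with 5 lists of 122 genes in all that hold none of the 10 genes, of which 80 were tested. Of these 7 rose, 4 fell and 69 did not pass, against 4.43% and 4.66% of all tested genes in the same directions. Their median log2 fold change was -0.01, beside 0.01 for all genes. With 1 library left out the count ran from 5 (without shTRIM21 replicate 1 or 2) to 16 (without shControl replicate 3), and it was 6 without shControl replicate 1.

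Of 4 tested genes among the other hyaluronan enzymes 2 rose and 2 did not pass, with a median log2 fold change of 0.16. Fragments of hyaluronan are broken down to single sugars in the lysosome. HEXA, a lysosomal enzyme that removes terminal N-acetylglucosamine and rose in the shTRIM21 cells, had 47.5, 52.6 and 49.7 CPM in shTRIM21, against 37.2, 39.1 and 33.5 CPM in shControl. The groups did not overlap, and the log2 fold change was 0.45 (SE 0.09, edgeR adjusted p = 0.00418). GUSB, which removes the glucuronic acid, had a log2 fold change of -0.21 (SE 0.11) that did not pass (edgeR adjusted p = 0.258), and ABCC5, a membrane transporter proposed to carry hyaluronan, 0.08 (SE 0.10, adjusted p = 0.705).

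Among 21 tested genes of nucleotide sugar supply 3 rose, 2 fell and 16 did not pass, with a median log2 fold change of 0.01. GNPDA1, which turns glucosamine 6-phosphate back to fructose 6-phosphate, averaged 251 ± 12.9 CPM in shTRIM21 and 193 ± 2.78 CPM in shControl (SD, n = 3 each), a log2 fold change of 0.38 (SE 0.06, edgeR adjusted p = 0.000742). GFPT2, an isoform of the entry enzyme of the hexosamine pathway, changed by 0.28 (SE 0.07, edgeR adjusted p = 0.0182). Its call was lost without shTRIM21 replicate 1 (0.24) or 2 (0.30) or shControl replicate 1 (0.26). GFPT1, the main isoform in many tissues, averaged 192 ± 6.84 CPM in shTRIM21 and 193 ± 18.1 CPM in shControl (SD, n = 3 each), with a log2 fold change of -0.01 (SE 0.07, edgeR adjusted p = 0.956).

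The hexokinases moved apart. HK1 averaged 131 ± 3.02 CPM in shTRIM21 and 107 ± 4.24 CPM in shControl, a log2 fold change of 0.29 (SE 0.07, edgeR adjusted p = 0.00908). HK2 averaged 130 ± 7.24 CPM in shTRIM21 and 159 ± 4.34 CPM in shControl, a log2 fold change of -0.29 (SE 0.07, edgeR adjusted p = 0.00976), and lost its call without shTRIM21 replicate 2 (-0.28). The groups of 3 libraries did not overlap for either gene. OGA, which removes N-acetylglucosamine from proteins, fell by 0.27 (SE 0.06, edgeR adjusted p = 0.00869) on the log2 scale. UAP1, which completes UDP-N-acetylglucosamine, had a log2 fold change of -0.18 (SE 0.07) that did not pass (edgeR adjusted p = 0.114).

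Sulfated glycosaminoglycans draw on the same UDP-glucuronic acid. Of 29 tested genes of their synthesis 1 rose, 1 fell and 27 did not pass, with a median log2 fold change of -0.01. B4GALT7, which adds the first galactose of the linker to the core protein, averaged 7.81 ± 1.25 CPM in shTRIM21 and 4.86 ± 0.499 CPM in shControl (SD, n = 3 each), a log2 fold change of 0.69 (SE 0.20, edgeR adjusted p = 0.0401). Its call was lost in limma-voom (0.68), without shTRIM21 replicate 1 (0.58) or 2 (0.66) and without shControl replicate 1 (0.65), 2 (0.77) or 3 (0.65). HS2ST1, a heparan sulfate sulfotransferase, averaged 138 ± 4.29 CPM in shTRIM21 and 161 ± 0.490 CPM in shControl, a log2 fold change of -0.23 (SE 0.06, edgeR adjusted p = 0.0288). That call was lost without shTRIM21 replicate 1 (-0.21), 2 (-0.25) or 3 (-0.21), without shControl replicate 1 (-0.23) or 2 (-0.22), and with total counts (-0.23).

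Of 20 tested genes of CD44's linkers, splicing factors and sheddases 1 rose, 1 fell and 18 did not pass, with a median log2 fold change of -0.06. IQGAP1, a scaffold of the actin cytoskeleton, averaged 321 ± 19.2 CPM in shTRIM21 and 384 ± 4.44 CPM in shControl (SD, n = 3 each), a log2 fold change of -0.26 (SE 0.06, edgeR adjusted p = 0.0124). Its call was lost without shTRIM21 replicate 1 (-0.21) and with total counts (-0.26). MSN, the linker moesin, averaged 161 ± 2.11 CPM in shTRIM21 and 138 ± 8.56 CPM in shControl, a log2 fold change of 0.22 (SE 0.07, edgeR adjusted p = 0.0394). The MSN call was lost without shTRIM21 replicate 1 (0.21), 2 (0.23) or 3 (0.23), shControl replicate 1 (0.24) or 2 (0.25), or replicate 3 of both groups (0.19), and with total counts (0.22). Its relative EZR, ezrin, had a log2 fold change of -0.03 (SE 0.06, edgeR adjusted p = 0.798). ADAM10, which sheds the CD44 ectodomain, had -0.14 (SE 0.07, adjusted p = 0.258), and ESRP2, a splicing factor of epithelial cells, 0.02 (SE 0.08, adjusted p = 0.925).

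Other hyaluronan-binding proteins were mostly near the floor. Of 26 genes 10 were at 0 in all libraries, 6 were tested and 0 passed edgeR's test, beside 2 at an unadjusted p under 0.05. DESeq2 and limma-voom also called 0. The 2 in edgeR were BCAN (0.45, SE 0.17, edgeR adjusted p = 0.121) and HABP4 (0.30, SE 0.12, edgeR adjusted p = 0.125). Both were higher in shTRIM21. They were the only 2 of the 6 with a positive log2 fold change, and the median of the 6 was -0.11. HMMR, a hyaluronan receptor and spindle protein, averaged 10.1 ± 2.46 CPM in shTRIM21 and 11.5 ± 1.21 CPM in shControl (SD, n = 3 each), a log2 fold change of -0.18 (SE 0.18, edgeR adjusted p = 0.588). VCAN, the hyaluronan-binding proteoglycan versican, was listed at 0 in all shTRIM21 libraries and had 6, 10 and 2 counts in shControl, below the filter. STAB2, also below the filter, went the other way, with 3, 15 and 6 counts in shTRIM21, against 0, 1 and 4 in shControl. LYVE1, the hyaluronan receptor of lymphatic vessels, had 3 counts in shTRIM21 replicate 1, 4 in shControl replicate 1 and 0 elsewhere.

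**Figure D4:**
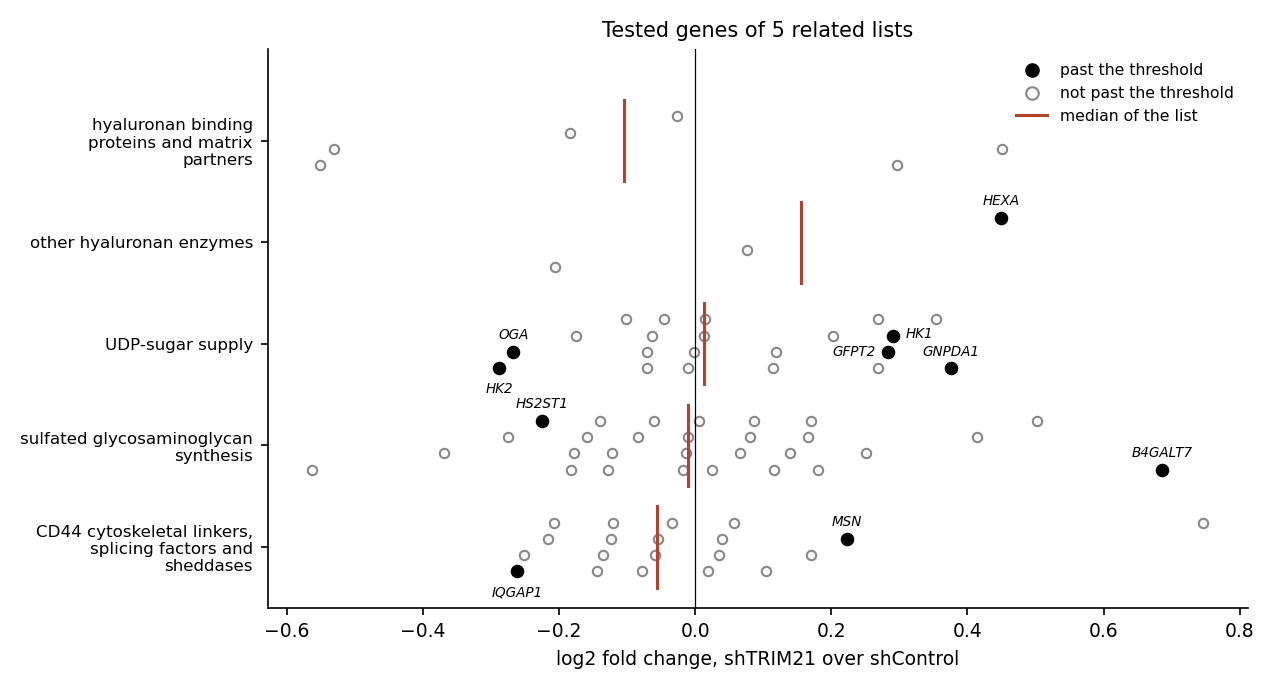
Log2 fold change, shTRIM21 over shControl (horizontal axis), of 79 of the 80 tested genes in 5 related lists (1 row of dots each, spread vertically for legibility), filled and named where the edgeR test was passed, with the median over all tested genes of each list as a red line. The filled dots lie on both sides of 0, with HEXA (0.45) and B4GALT7 (0.69) furthest to the right and HK2 (-0.29) furthest to the left.

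The 5 genes most like HAS2 over the 6 libraries, by Pearson correlation of log2 CPM among 10652 other tested genes with at least 5 CPM, were ZNF180, ANLN, SLC6A6, CCP110 and DYRK1A. Their correlations ran from 0.995 to 0.997 and were 0.747 to 0.934 for deviations within groups. Their log2 fold changes lay between -0.92 (ANLN) and -0.24 (DYRK1A). The 5 most like CD44 were STRIP2, KLF3, PTPRG, ANKIB1 and TMX4, at 0.996 to 0.997 and, within groups, 0.934 to 0.972. CD44 and HAS2 correlated at 0.977 with each other. By Spearman correlation, which uses ranks only, the median over the 5 genes was 0.829 for HAS2 and 0.943 for CD44. These genes were picked for high correlation in the same libraries, which can raise the values within groups too. All points share the 6 libraries and the split into 2 groups, which sets most of each value, so these are descriptions only.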

How the data were processed

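RNA was sequenced in 3 shTRIM21 and 3 shControl libraries of HCT116 cells. For each library the authors deposited whole-number counts by gene symbol, without normalization. TopHat2 2.1.1, edgeR 3.38.1, limma 3.52.2 and hg38 are named, per the submitters' processing notes. Not given in the sources used here are the counting tool, its annotation and its strand setting. The test was edgeR 4.0.16 in R 4.3.3: default low-count filter, TMM scaling, quasi-likelihood test of shTRIM21 against shControl, Benjamini-Hochberg adjustment over 14002 genes, threshold 0.05. The SE is the log2 fold change divided by the square root of F. CPM are relative to TMM-scaled library sizes. The procedure was tested on simulated data. Positions, exon lengths and 3′ UTRs come from GENCODE 29 (GRCh38).

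The members and lists were chosen with earlier results of these data known. The text names all 10 genes, TRIM21, genes overlapping them, list genes past the threshold with some that did not pass, chosen after their values were seen, and the 5 genes most like HAS2 and CD44. 1 list gene that passed is counted but not reported here. Alternatives were other scalings, no filter, DESeq2 1.42.0, limma-voom (limma 3.58.1), no rRNA genes, libraries left out and a replicate block. Library totals ran from 22656160 to 27123657 counts.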

Additional observations from a re-analysis of the deposited data

How the results depend on the processing

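With 1 library left out, 2 to 4 of the hyaluronan genes and CD44 passed, 602 to 1737 of all genes, against 1272, and 5 to 16 of the related genes, against 11. TRIM21 ran from -0.82 to -0.56 in those fits, and was -0.45 and no longer called without replicate 3 of both groups. Scaling by total counts left 7 related genes called. HYAL2, never called, was -0.053 without replicate 3 of both groups, against 0.10; the cause was not tested. Of the 9 tested genes of the set 6 kept direction and call in all 15 other fits. Of these HAS2, on which the set was picked, and UGDH were called in every fit, and HAS3, HYAL3, CEMIP and CEMIP2 in none. CD44 and UGP2 changed call. Of the 11 related genes called, 4 kept direction and call in all 15 other fits and 7 changed call. All fits reuse the same libraries, and the genes were chosen with earlier results known. These counts therefore describe the values and add no support. The share of all genes that kept their call is not given here. The HAS2 share differed by -31.2 to -28.2 percentage points with 1 library left out, and by -29.7 in all. Deviations from the group means correlated at 0.096, -0.012 and 0.091 between libraries of the same number, and at -0.12 to 0.048 between libraries of different number. The rRNA share fell from replicate 1 to 3 in both groups, 15.2%, 13.5% and 9.55% in shTRIM21 and 14.7%, 13.2% and 6.69% in shControl. The main fit did not take the numbers as pairs, and whether they mark a shared batch was not tested. With the replicate block 1699 genes, 16 related genes and 3 of the set (1 higher, 2 lower) were called. HYAL1 and CEMIP had 0 to 33 counts per library, and no limit of detection was computed for them.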

Other observations

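In all 6 libraries more symbols had a count of 2 than a count of 1. The numbers were 549 against 466, 636 against 610 and 404 against 355 in shTRIM21 replicates 1 to 3, and 471 against 426, 599 against 591 and 531 against 467 in shControl. A count of 4 was also more frequent than 3 in 5 of the 6 libraries, the exception being shTRIM21 replicate 2, at 311 against 354. Whether both reads of a pair were counted separately was not tested. Counts this low occur in HYAL1, VCAN, STAB2 and LYVE1. Whether such counting bears on genes with higher counts, such as HAS2, CD44 and UGDH, was not tested.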
